A study of Mus musculus with 60 samples.

Results

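The genes described here were 32 genes of the interferon response and of MHC class I antigen presentation, taken from a list of symbols and all present among the 35889 genes to which the deposited transcripts could be assigned. Of these 32 genes, 25 are interferon-induced: the OAS family (Oas1a, Oas2, Oas3, Oasl2), the RNA sensors (Ifih1, Dhx58, Eif2ak2), the signalling factors (Irf7, Irf9, Stat2), the IFIT family (Ifit1, Ifit2, Ifit3, Ifit3b), the ISG15 system (Isg15, Usp18, Trim25) and 8 further antiviral effectors (Mx1, Mx2, Rsad2, Bst2, Ifi27, Ifi44, Xaf1, Parp14). The other 7 are grouped by their role in MHC class I, whether or not interferon induces them. They are the chain genes B2m, H2-K1 and H2-D1, the peptide transporter gene Tap1, the loading factor gene Tapbp, and the immunoproteasome genes Psmb8 and Psmb9.

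RNA was sequenced from dissociated cells sorted on the neuronal antigen NeuN out of punches of the mouse nucleus accumbens (NAc, labelled as its core, while the methods name shell and core) and medial prefrontal cortex (mPFC, labelled as prefrontal cortex). All 60 libraries carried the genotype label Ai14xFosiCre and the treatment label for dual self-administration of cocaine and sucrose, the naive and non-ensemble controls included. In these mice a tamoxifen-inducible Cre driven by the cFos locus switches on the red protein tdTomato in cells active when 4-hydroxytamoxifen is given, which was after cued cocaine seeking, and cFos antibody marked cells active after cued sucrose seeking. The sort gave cocaine-seeking (tdTomato only), sucrose-seeking (cFos only), overlapping (both marks) and non-ensemble (neither mark) populations, so the tdTomato mark was older than the cFos mark in every animal. Each library came from a pool of 3 mice of 1 sex, 6 pools gave all 4 populations in both regions (48 libraries), and a further 12 libraries were labelled naive, a word that the labels do not explain. The animals were adult, and every group of the text holds 6 libraries, 3 of each sex. Whether the naive libraries came from the mice of the 6 pools or from other mice is not stated by the labels.

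Type I interferons are secreted proteins that bind a receptor on almost every cell type, activate the kinases Jak1 and Tyk2, and send a complex that holds Stat2 and Irf9 to a promoter element called the interferon-stimulated response element. The induced genes sense viral RNA, degrade it, block its translation or load peptides onto MHC class I for inspection by T cells. Neurons carry this machinery at low levels, microglia and endothelial cells of the brain at higher ones, and B2m, H2-K1 and H2-D1 also have roles at synapses.

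Some promoters of these genes hold a motif of the interferon-stimulated response element, and others do not. A few with a match are given because the members with the clearest differences or the lowest levels are among them. The window searched ran from 250 bases before to 50 bases after each start annotated by RefSeq on GRCm38.p6, the motif was GAAANNGAAA on either strand, and overlapping matches were counted apart. Of the 32 genes 25 had an entry, and Oas2, Dhx58, Usp18, Mx1, Mx2, Ifi27 and Parp14 were not analysed here. The motif stood in the window of 12 of the 25 genes (48.0%), against 1079 of 27025 genes of any kind (3.99%) and 1131 of all 32851 promoters (3.44%): 11 of 18 interferon-induced members and 1 of 7 MHC class I members, B2m, held it. Capitals mark the matches, read 5′ to 3′ on the strand of the gene, so that a match on the other strand reads TTTCNNTTTC, and positions count from 0 at the annotated start.
Oas3: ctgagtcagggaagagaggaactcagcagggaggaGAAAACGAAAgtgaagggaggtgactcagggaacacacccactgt
Stat2: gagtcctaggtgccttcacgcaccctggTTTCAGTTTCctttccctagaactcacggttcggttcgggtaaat
Isg15: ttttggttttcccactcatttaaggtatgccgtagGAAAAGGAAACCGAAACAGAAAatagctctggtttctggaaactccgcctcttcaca
Ifit3: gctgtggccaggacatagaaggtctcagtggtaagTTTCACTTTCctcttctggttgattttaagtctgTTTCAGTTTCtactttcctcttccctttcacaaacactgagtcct
B2m: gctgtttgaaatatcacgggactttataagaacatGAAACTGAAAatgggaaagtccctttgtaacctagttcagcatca
Eif2ak2: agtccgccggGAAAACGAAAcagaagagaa
Ifih1: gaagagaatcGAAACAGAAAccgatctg

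On GRCm38.p6 the Oas3 stretch was chr5:120777690-120777769 on the minus strand, with the match at -75 to -66. The Stat2 stretch was chr10:128270248-128270320 on the plus strand and lay far from the start, with the match at -222 to -213. That of Isg15 was chr4:156200840-156200931 on the minus strand and held 3 overlapping matches, the first at -78 to -69. The Ifit3 stretch, chr19:34583338-34583451 on the plus strand, held 2 matches and was letter for letter that of Ifit3b at chr19:34607734-34607847. That of B2m was chr2:122147513-122147592 on the plus strand, with the match at -139 to -130. In Eif2ak2 (chr17:78882535-78882564, minus strand) and Ifih1 (chr2:62646206-62646233, minus strand) the match lay just past the start, at 18 to 27 and at 32 to 41. A match is a description of the letters and not a measured binding site.

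The libraries differed in ways that touch every result. The 48 libraries of the sorted populations held 9933361 to 24500899 counts (median 13723715) and the naive ones 29238727 to 45299753 (median 40670731), so that 1 CPM (the normalised read count per library, scaled to a fixed total) stood for 9.93 to 24.5 reads in the former. Counts of olfactory, vomeronasal and taste receptor genes, which neurons of these regions hardly use, took 1.05 to 1.99% of the non-ensemble counts in the NAc and 2.10 to 4.03% of the sucrose-seeking counts. In the mPFC the same share was 1.49 to 5.15% and 2.12 to 6.63%. Of the 24 mPFC libraries of the 4 populations, 16 (all 12 female ones and the 4 of male pool 2) had 17.6 to 81.2 CPM of Slc17a7, the vesicular glutamate transporter of cortical projection neurons, less than the lowest NAc library with 128, while NAc libraries reached 597. In male pool 3 the mPFC libraries had 329 to 662 and the NAc ones 157 to 221. In male pool 1 they had 265 to 408 and 416 to 597, so this marker went with the region label in male pool 3 only. The comparisons among the 4 populations of the mPFC and between the regions are also given for male pools 1 and 3, the pools outside the low 16, while the naive comparison, the interactions and the pathway genes are not. Female pool 2 had 12.1 to 20.5 CPM of the Y-linked Ddx3y in its 8 libraries, against at most 2.27 in the other female libraries of the 4 populations, so its label as a female pool went against that gene. Despite the neuronal sort, 8 astrocyte markers summed to 2739 to 6043 CPM in the 24 NAc libraries and 6 neuronal markers to 2988 to 5284 CPM. Fewer cells of a type and less RNA per cell cannot be told apart in such bulk libraries.

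The 32 genes were expressed at low levels in both regions. On the scale of TPM, a transcript abundance per library that corrects for length, H2-D1, a heavy chain of MHC class I, stood highest with means over 24 libraries of 47.3 in the NAc and 46.9 in the mPFC. It was followed by Stat2 (40.3 and 40.7), a transcription factor of the interferon pathway, H2-K1 (37.6 and 36.6), Tapbp (35.5 and 42.7) and B2m (30.3 and 32.1), the light chain of MHC class I. The ranges of these 5 genes overlapped widely between libraries, from 17.2 to 64.9 TPM for H2-D1 and from 16.8 to 63.7 TPM for B2m in the mPFC, so their order is not resolved. At the other end stood Ifi44, with 0.70 TPM in the NAc and 0.68 in the mPFC, and Ifit1, with 0.84 and 1.31. The median of the 32 means was 6.57 TPM in the NAc and 9.10 TPM in the mPFC.

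In CPM, the unit of all tests below, Eif2ak2, the kinase PKR that halts translation on double-stranded RNA, had the most reads, with a mean of 33.5 in the NAc and 42.6 in the mPFC. Isg15, which encodes a ubiquitin-like modifier, was the only member with a mean under 1 CPM over the 24 libraries of a region, 0.89 in the NAc and 0.94 in the mPFC. Of the 5 population means of a region, naive included, Isg15 had 3 under 1 CPM in the NAc and 2 in the mPFC. Bst2 had 2 in each region and Oas1a 1 in each. Under 5 CPM were 14 members in the NAc and 12 in the mPFC. In the NAc 9 members had at least 1 of 24 libraries under 1 CPM: Isg15 in 14, Oas1a in 12, Bst2 in 9, Ifit1 in 5, Usp18 in 3, Ifi44 and Psmb8 in 2, and Rsad2 and Psmb9 in 1. A count of 0 was found for Bst2 in 2 and for Ifi44 in 1 of these libraries, which allows a level of up to 0.12 to 0.30 CPM by library (3 counts, counting error only). In the mPFC 4 members had a library under 1 CPM, Isg15 in 14, Bst2 in 12, and Oas1a and Ifi44 in 1, and none had a library at 0. All 32 genes passed the filter on low counts in every comparison.

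**Figure D1:**
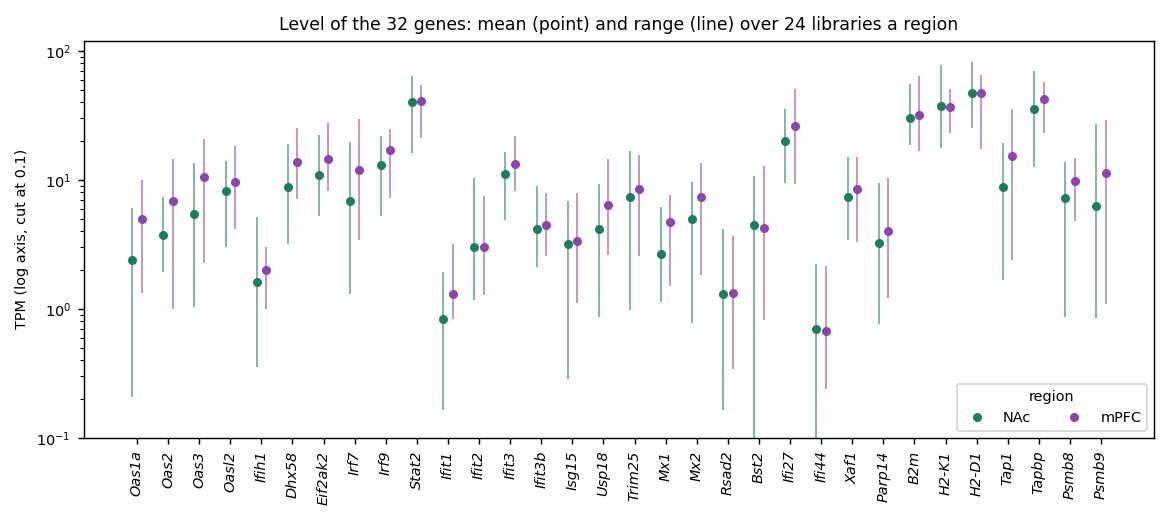
Mean level of the 32 genes in TPM (log axis, cut at 0.1) over 24 libraries of the 4 populations in each region, with lines from the lowest to the highest library. Stat2 and the MHC class I genes B2m, H2-K1, H2-D1 and Tapbp stood at 30.3 to 47.3 TPM on average, and Ifi44 lowest.

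The comparison of the sucrose-seeking with the non-ensemble population of the NAc, which asks how neurons marked by recent sucrose seeking differ from unmarked ones, gave more calls than any other comparison among the 4 populations. By edgeR's quasi-likelihood test with the animal pool as a block and adjustment over all 25150 genes tested (adjusted p under 0.05), 10 of 32 members were higher and 0 lower. Over all genes 36.5% passed, 16.8% higher and 19.6% lower, and the median log2 fold change was 0.47 over the members against 0.22 over all genes tested, a shift of the whole table against which the members' values should be read. The 10 members were spread over the roles: Oas3 and Oasl2, the sensors Ifih1 and Eif2ak2, Irf7 and Stat2, the effectors Mx1, Ifi44 and Xaf1, and the immunoproteasome gene Psmb9. No member of the IFIT family and none of the 3 MHC class I chain genes passed.

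Eif2ak2 (GRCm39 chr17:79159972-79190012) lay between 15.7 and 39.1 CPM (median 27.2) in the 6 non-ensemble libraries of the NAc and between 32.1 and 45.8 (median 43.4) in the sucrose-seeking ones. Its log2 fold change was 0.59 ± 0.10 (SE, adjusted p = 3.9e-05 by edgeR), and nearly all of its reads came from its protein-coding transcript. Mx1 (chr16:97248235-97264107), a dynamin-like antiviral protein, lay between 1.20 and 2.28 CPM (median 1.76) in non-ensemble and between 2.94 and 4.85 (median 3.83) in sucrose-seeking libraries. These groups did not overlap, and the log2 fold change was 1.06 ± 0.27 (adjusted p = 0.0028). Yet the protein-coding Mx1 transcript had a median of 0.47 CPM in both groups, while a transcript annotated with no defined coding sequence had medians of 0.16 and 1.56 and one annotated for nonsense-mediated decay had medians of 0 and 1.02 (CPM without TMM factors). Stat2 (chr10:128106352-128128735) lay between 12.9 and 22.8 CPM (median 20.6) and between 19.4 and 33.4 (median 29.2), with a log2 fold change of 0.48 ± 0.13 (adjusted p = 0.0046). All but the lowest sucrose-seeking library of Stat2 stood above the highest non-ensemble one.

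Among the OAS genes, whose products activate the nuclease RNase L or bind RNA, Oas3 (chr5:120891163-120915729) lay between 2.97 and 11.6 CPM (median 4.45) in non-ensemble and between 6.41 and 13.2 (median 8.00) in sucrose-seeking libraries of the NAc. Its log2 fold change was 0.59 ± 0.20 (adjusted p = 0.020), and the groups overlapped through 2 non-ensemble libraries. The Oas3 call was lost without female pool 2, male pool 2 or male pool 3. Oasl2, an OAS-like protein, went from a median of 4.86 to 7.74 CPM (log2 0.61 ± 0.20, adjusted p = 0.018). Ifih1, the sensor MDA5 of long double-stranded RNA, went from a median of 3.16 CPM (1.33 to 6.74) to 5.32 (4.33 to 7.11), with a log2 fold change of 0.77 ± 0.27 (adjusted p = 0.027). Irf7 (chr7:140842619-140846398), the transcription factor that amplifies interferon production, went from 3.57 CPM (2.02 to 5.22) to 5.54 (3.12 to 8.70), a log2 fold change of 0.64 ± 0.24 (adjusted p = 0.036). In these 4 genes the groups overlapped. With length-scaled counts the values of Oasl2 (-0.12) and Ifih1 (-0.0075) turned, and the calls of Ifih1 and Irf7 were each lost in 4 of 6 fits that left out a pool, that of Oasl2 in 2.

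The remaining called members were Xaf1, Ifi44 and Psmb9. Xaf1, a partner of the apoptosis inhibitor XIAP, went from a median of 6.95 CPM to 10.8 (log2 0.52 ± 0.18, adjusted p = 0.020), with 1 non-ensemble library at 13.4. Ifi44 went from 1.32 to 2.65 CPM (log2 1.23 ± 0.46, adjusted p = 0.038). Psmb9, an inducible catalytic subunit of the proteasome, went from 2.32 to 3.35 CPM (log2 0.81 ± 0.32, adjusted p = 0.046), and 1 sucrose-seeking library, of male pool 1, stood at 11.8 while the next was at 4.80. Leaving out a pool ended the Psmb9 call in 5 of 6 fits, the Ifi44 call in 4 and the Xaf1 call in 2. Isg15 (chr4:156283883-156285303) lay between 0.08 and 1.64 CPM in non-ensemble and between 0.52 and 1.36 in sucrose-seeking libraries, with a log2 fold change of 0.71 ± 0.62 (adjusted p = 0.39). Just outside the threshold lay Oas1a (log2 1.14, adjusted p = 0.068), Oas2 (0.52, 0.072), Mx2 (0.70, 0.085), Parp14 (0.46, 0.094) and Trim25 (0.49, 0.095). The 4 IFIT genes, whose products block translation of foreign RNA, had log2 values of 0.64 (Ifit1), -0.029 (Ifit2), -0.0018 (Ifit3) and -0.10 (Ifit3b).

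The MHC class I chain genes of the NAc gave values near 0 in this comparison. B2m (chr2:121977957-121983594) lay between 13.2 and 21.9 CPM in non-ensemble and between 13.8 and 16.8 in sucrose-seeking libraries, with a log2 fold change of -0.16 ± 0.14 (adjusted p = 0.39). H2-K1 (chr17:34214987-34219321) lay between 9.36 and 14.1 and between 8.57 and 18.0 CPM (log2 0.28 ± 0.18, adjusted p = 0.24), and H2-D1 (chr17:35481691-35486475) between 19.8 and 31.9 and between 12.5 and 36.9 CPM (log2 0.019 ± 0.16, adjusted p = 0.94). The lowest sucrose-seeking value of both heavy chains was that of male pool 1. By 31-base stretches 26.7% of H2-D1 and 22.8% of H2-K1 sequence also occurs in other genes, so the split of reads among these paralogs is uncertain, as it is for Oas1a (67.9%), Ifit3 (56.7%) and Ifit3b (58.0%), while B2m shares none.

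**Figure D2:**
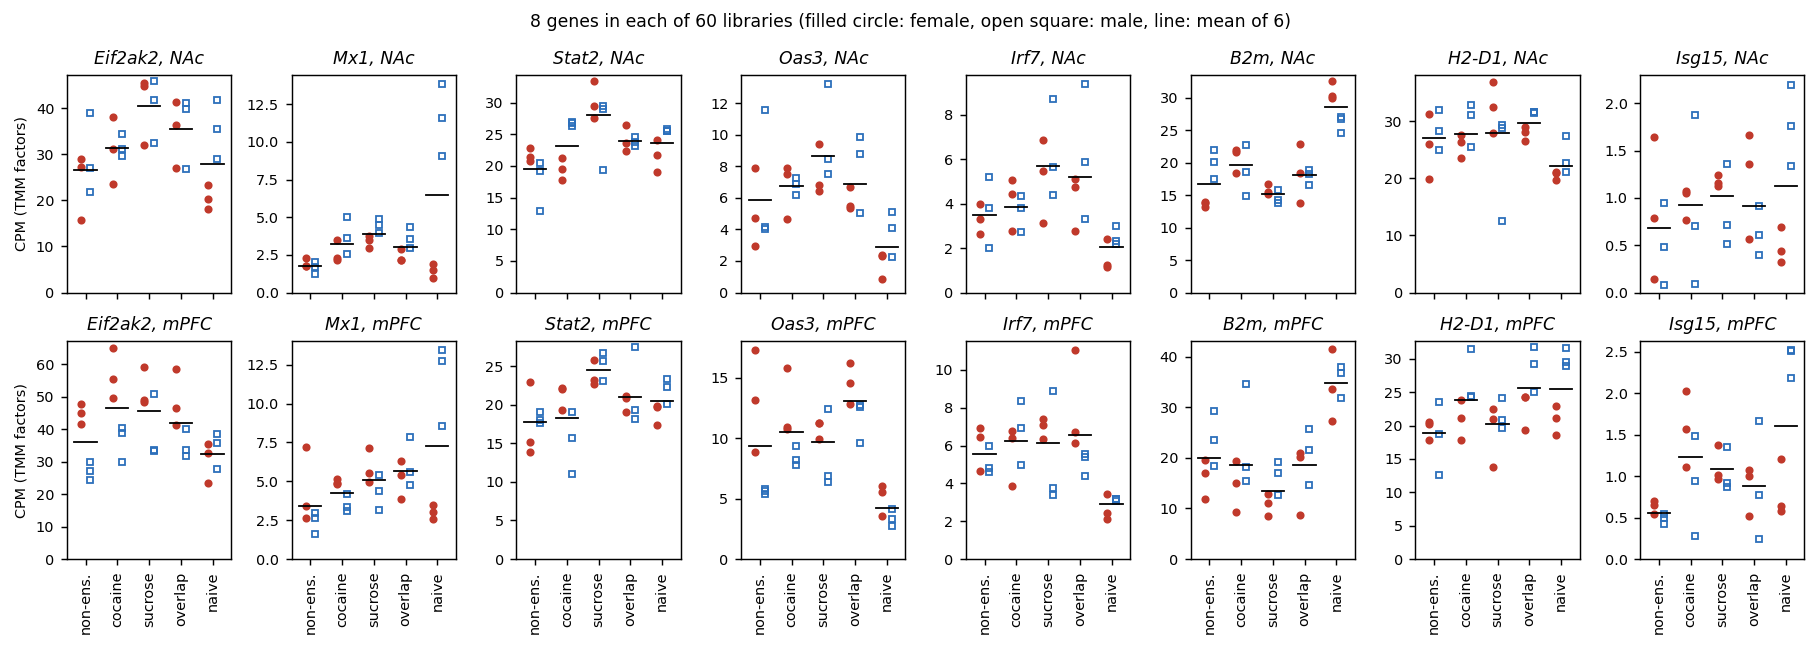
CPM of 8 of the 32 genes in each of the 60 libraries by population, upper row NAc and lower row mPFC, with filled circles for female, open squares for male libraries and a line at the mean of 6. Mx1 in the NAc separated non-ensemble from sucrose-seeking libraries, B2m in the NAc stood above the non-ensemble libraries in the 6 naive ones, and the 3 male naive libraries were far above the female ones for Mx1.

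How many members were called in the NAc depended on the fit. Without the pool block 4 were called (7721 genes in all, against 9168 with it), in the female pools alone 5 (26.4% of all genes) and in the male pools alone 2 (19.1%). They were 6, 6, 4 and 6 when female pool 1, female pool 2, male pool 2 or male pool 3 was left out (8145, 8290, 7835 and 8722 genes in all). Over all fits that left out a pool the count ran from 4 to 13. With only protein-coding genes other than chemoreceptors in the table, an alternative chosen after seeing the data, 16 were called, all higher (8172 genes in all), with a median of 0.55 against 0.11. Other RNA moved with the same comparison: 475 of 1526 chemoreceptor genes were higher and 1 lower (median log2 0.78), 10 of 10 endothelial markers were higher (median log2 1.12, summed level 84.5 to 152 CPM in non-ensemble and 124 to 322 CPM in sucrose-seeking libraries), and 3 of 12 microglial markers were lower. The summed neuronal markers stood at 4657 to 5284 CPM in non-ensemble and 2988 to 3697 in sucrose-seeking libraries, and the astrocyte markers at 4686 to 6043 and 2739 to 4177. Their part in the result was not tested, and none of these marker genes was at 0 in every library of a group.

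**Figure D3:**
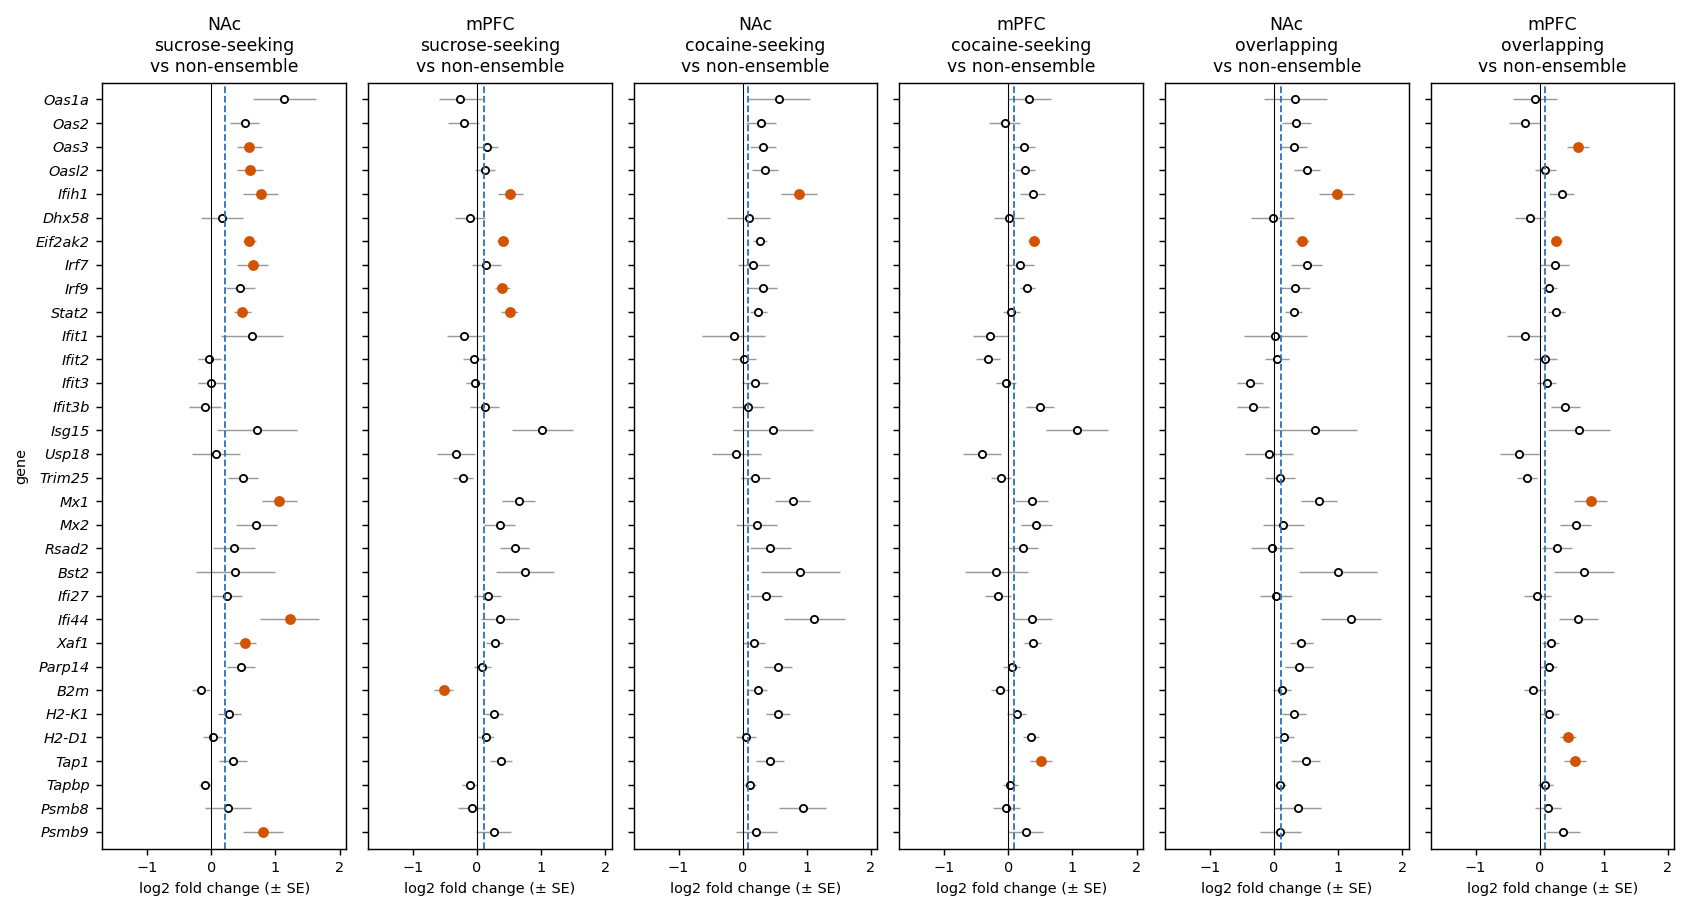
Log2 fold change (± SE) of the 32 genes in the sucrose-seeking, cocaine-seeking and overlapping populations against non-ensemble in the NAc and mPFC. Filled points passed adjusted p 0.05, dashed lines mark the median of all genes tested, and the sucrose-seeking population of the NAc had 10 filled points, all to the right.

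Against the same non-ensemble libraries of the NAc, the cocaine-seeking population had 1 member called, Ifih1, against 11.2% of all genes, 4.63% higher and 6.59% lower. Ifih1 lay between 3.46 and 7.31 CPM (median 6.70) there, with a log2 fold change of 0.88 ± 0.28 (adjusted p = 0.039). The median of the 32 members was 0.28 and that of all genes 0.078. In the overlapping population 2 members were called, Ifih1 (4.03 to 7.65 CPM, log2 0.98 ± 0.28, adjusted p = 0.014) and Eif2ak2 (26.8 to 41.5 CPM, log2 0.44 ± 0.10, adjusted p = 0.0041), against 18.2% of all genes, 7.5% higher and 10.7% lower. The member median was 0.31 against 0.10. Since all 3 comparisons use the same 6 non-ensemble libraries, their values stand side by side and are not independent. The Ifih1 call in the cocaine-seeking population was lost without female pool 1, female pool 2, male pool 1 or male pool 2, and that in the overlapping population without female pool 1, female pool 2 or male pool 1. The 12 microglial markers moved with both marked populations, 11 of 12 and 12 of 12 higher (434 to 566 and 502 to 677 CPM summed, against 227 to 332 in non-ensemble), and their part was not tested.

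The direct comparison of the cocaine-seeking with the sucrose-seeking population called 2 members in the NAc. B2m was higher in the cocaine-seeking population, 14.8 to 22.7 CPM (median 20.2) against 13.8 to 16.8 (median 15.4), with a log2 difference of 0.40 ± 0.14 (adjusted p = 0.048). Eif2ak2 was lower, 23.5 to 38.2 CPM (median 31.2) against 32.1 to 45.8, with a log2 difference of -0.32 ± 0.10 (adjusted p = 0.028), a call lost without female pool 1 or male pool 2. Of all genes 16.9% passed, 11.4% were higher and 5.57% lower. The B2m call was lost when any pool other than male pool 3 was left out (log2 0.34 to 0.45), and 11 of 12 microglial markers were higher in the same comparison, with summed levels of 186 to 271 CPM in the sucrose-seeking libraries. Their part was not tested. Xaf1 did not overlap between these populations, with every cocaine-seeking library at or under 9.65 CPM and every sucrose-seeking one at or above 9.73, but it did not pass the test across all genes. Between the cocaine-seeking and overlapping populations no member and no gene at all passed (0%), with 1 member at an unadjusted p under 0.05 by edgeR and 0 calls by DESeq2. Between the overlapping and sucrose-seeking populations no member passed, with 1 at an unadjusted p under 0.05 and 0 calls by DESeq2, while 12.4% of all genes passed, 8.8% higher and 3.61% lower.

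In the mPFC the sucrose-seeking population had 4 members higher and 1 lower than non-ensemble, against 12.1% and 14.6% of the 26861 genes tested (26.7% in all), with a member median of 0.16 against 0.11. Eif2ak2 lay between 24.3 and 47.7 CPM (median 35.8) in non-ensemble and between 33.3 and 59.2 (median 48.8) in sucrose-seeking libraries, with a log2 fold change of 0.40 ± 0.084 (adjusted p = 0.00055). Stat2 lay between 13.9 and 23.0 CPM (median 17.8) and between 22.7 and 26.7 (median 24.4), a log2 fold change of 0.51 ± 0.13 (adjusted p = 0.0039). Irf9, the DNA-binding partner of Stat2, lay between 10.3 and 18.9 CPM and between 16.5 and 20.5 (log2 0.39 ± 0.12, adjusted p = 0.013). Ifih1 lay between 2.96 and 9.42 CPM and between 6.05 and 8.55 (log2 0.52 ± 0.19, adjusted p = 0.047). The groups overlapped in these 4 genes, for Stat2 through 1 non-ensemble library. Without female pool 2, female pool 3 or male pool 2 the count of members called was 3. The Irf9 call was lost without female pool 2, female pool 3, male pool 1 or male pool 2, the Ifih1 call without female pool 2 or any male pool, and the Stat2 call without female pool 3.

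B2m was the member that fell in the mPFC. It lay between 11.9 and 29.3 CPM (median 19.0) in non-ensemble and between 8.44 and 19.2 (median 12.8) in sucrose-seeking libraries, with a log2 fold change of -0.52 ± 0.15 (adjusted p = 0.0085). H2-K1 went from a median of 13.2 CPM to 15.8 (log2 0.27 ± 0.15, adjusted p = 0.20) and H2-D1 from 19.5 to 20.9 (log2 0.14 ± 0.12, adjusted p = 0.48). The light chain and the heavy chains thus had values of opposite sign, of which that of B2m alone passed. In this comparison 4 of 12 microglial markers were lower (summed 144 to 190 CPM against 170 to 282), 9 of 10 endothelial markers and 301 of 1664 chemoreceptor genes were higher, and their part was not tested. Isg15 did not overlap, with 0.42 to 0.70 CPM in non-ensemble and 0.87 to 1.38 in sucrose-seeking libraries, and higher in 6 of 6 pools, but its log2 fold change of 1.02 ± 0.47 did not pass (adjusted p = 0.12). Oas3 (log2 0.16 ± 0.17, adjusted p = 0.55) and Irf7 (log2 0.15 ± 0.22, adjusted p = 0.69) were within about 1 SE of 0.

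In the other marked populations of the mPFC, 2 members were higher in cocaine-seeking than in non-ensemble libraries and none lower, against 6.06% and 10.4% of all genes (16.5% in all). They were Eif2ak2 (29.8 to 65.1 CPM, log2 0.39 ± 0.085, adjusted p = 0.0016) and Tap1, a chain of the peptide transporter into the endoplasmic reticulum, which went from a median of 6.77 CPM (3.90 to 11.8) to 10.4 (7.53 to 14.4), a log2 fold change of 0.51 ± 0.17 (adjusted p = 0.041). The Tap1 call was lost whichever of the 6 pools was left out (log2 0.34 to 0.57), and the count was 1 without male pool 2. In the overlapping population 5 were higher and none lower, against 5.69% and 9.31% (15% in all). H2-D1 went from a median of 19.5 CPM (12.6 to 23.5) to 24.6 (19.3 to 31.7), with a log2 fold change of 0.45 ± 0.12 (adjusted p = 0.014). Oas3 went from 7.33 CPM (5.41 to 17.3) to 12.8 (9.60 to 16.2), with a log2 fold change of 0.60 ± 0.17 (adjusted p = 0.016). Tap1 (log2 0.55 ± 0.17, adjusted p = 0.027), Mx1 (median 2.82 to 5.50 CPM, log2 0.79 ± 0.25, adjusted p = 0.033) and Eif2ak2 (log2 0.26 ± 0.085, adjusted p = 0.038) were the others. Leaving out any 1 of the 6 pools brought this count to between 1 and 3, and the count without male pool 1 or male pool 2 was 1. In these 6 fits the Eif2ak2 call held in 1, those of Tap1 and Mx1 in 2, and those of H2-D1 and Oas3 in 4. The microglial markers were higher here too, 10 of 12 in cocaine-seeking and 11 of 12 in overlapping libraries, and their part was not tested.

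Between the marked populations of the mPFC, Stat2 was the member called, lower in cocaine-seeking (11.0 to 22.2 CPM, median 19.2) than in sucrose-seeking libraries (22.7 to 26.7), with no overlap. Its log2 difference was -0.46 ± 0.13 (adjusted p = 0.031), against 6.62% of all genes, 2.76% higher and 3.86% lower. The call was lost when female pool 3 or any male pool was left out (log2 -0.53 to -0.29 over all 6). Cocaine-seeking and overlapping libraries differed in no member and no gene (0%), with 2 members at an unadjusted p under 0.05 by edgeR and 0 calls by DESeq2. Overlapping and sucrose-seeking libraries differed in no member by edgeR, with 4 at an unadjusted p under 0.05, and in 3 by DESeq2, against 6.9% of all genes by edgeR, 3.76% higher and 3.13% lower.

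With male pools 1 and 3 alone, the pools whose mPFC libraries were not among the 16 lowest in Slc17a7, an alternative chosen after seeing the data, edgeR called no member in any mPFC comparison. Of the 32 members 6 had an unadjusted p under 0.05 in the sucrose-seeking comparison with non-ensemble, 5 in each of the cocaine-seeking and overlapping ones. The members called with all pools had these estimates: Eif2ak2 0.53, Stat2 0.52, Irf9 0.29, Ifih1 0.90 and B2m -0.78 on the log2 scale in sucrose-seeking, H2-D1 0.68, Oas3 1.16, Mx1 1.62, Tap1 0.24 and Eif2ak2 0.36 in overlapping, and Tap1 0.74 and Eif2ak2 0.26 in cocaine-seeking libraries. Stat2 had -0.83 between cocaine-seeking and sucrose-seeking libraries. Over all genes 3385 passed in the sucrose-seeking comparison of these pools, 33 in the cocaine-seeking and 21 in the overlapping one.

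The regions themselves were compared on the sums of the 4 populations in each pool. No member passed by edgeR with the pool as a block, with 4 at an unadjusted p under 0.05 and 1 call by DESeq2, against 7.2% of all genes, 2.73% higher in the mPFC and 4.47% lower. The member median was 0.24 and that of all genes 0.19. Oas3, with pool means of 7.58 to 15.1 CPM in the mPFC and 4.89 to 10.4 in the NAc and higher in the mPFC in 5 of 6 pools, had a log2 difference of 0.50 ± 0.18 (adjusted p = 0.097), and H2-D1, with 18.6 to 26.8 and 26.2 to 30.8 CPM and higher in 1 of 6 pools, one of -0.45 ± 0.14 (adjusted p = 0.059). Irf9, Mx1 and Psmb8 were higher in the mPFC in 6 of 6 pools without passing the test. In the female pools alone 15 members were called, 11 higher in the mPFC and 4 lower, where 56.8% of all genes passed. In the male pools alone the count was 0, with 2.69% of all genes. Without male pool 1 it was 8, and with male pools 1 and 3 alone 0.

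Whether the effects differed between the sexes or the regions was tested by interaction terms for each marked population against non-ensemble. No member passed in any of these edgeR fits, in which hardly any gene passed at all. Over all genes the share was 0% in the sex terms of the NAc and at most 0.0223% in those of the mPFC. In the region terms it was at most 0.00711%. A count of 0 members therefore does not show that the effects were alike. The smallest adjusted p was that of Ifih1 in the mPFC, with a cocaine-seeking effect lower in females than in males (log2 difference -1.08 ± 0.34, adjusted p = 0.32). In the NAc the cocaine-seeking effect on Stat2 was lower in females by a log2 difference of -0.79 ± 0.22, with an adjusted p of 0.88 by edgeR. For the sucrose-seeking effect, Oas1a, Oas2 and Trim25 had the smallest p-values for a difference between the regions, with lower values in the mPFC (log2 -1.37 ± 0.57, -0.71 ± 0.32 and -0.70 ± 0.27, adjusted p = 0.44, 0.48 and 0.41).

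The naive libraries differed from non-ensemble ones in members of both directions. The fit held all libraries of a region, those of the 3 marked populations included, with sex as a term and no pool block. It thus did not take into account that the 4 populations of a pool share animals. In the NAc 3 members were higher and 4 lower, against 12.4% and 10.7% of the 25765 genes tested (23.1% in all). In the mPFC 6 were higher and 9 lower, against 20.5% and 19.4% of 27208 genes (39.9% in all), with member medians of -0.17 and 0.11 and all-gene medians of -0.029 and -0.11. Slc17a7 differed as well in females: in the mPFC female naive libraries had 574 to 1237 CPM and the female libraries of the 4 populations 17.6 to 81.2. Male naive libraries had 220 to 289 CPM there, within the 33.9 to 662 of the male libraries of the 4 populations. In the NAc the ranges were 554 to 754 against 128 to 338 CPM in females and 279 to 326 against 157 to 597 in males. B2m was higher in both regions. In the NAc the 6 naive libraries had 24.5 to 32.6 CPM (median 28.5) and the non-ensemble ones 13.2 to 21.9, without overlap (log2 0.74 ± 0.13, adjusted p = 0.00027). In the mPFC they had 27.3 to 41.5 against 11.9 to 29.3 CPM (log2 0.87 ± 0.22, adjusted p = 0.0029). The microglial markers had 11 of 12 and 10 of 12 members higher in the same comparisons, 295 of 1574 and 482 of 1682 chemoreceptor genes were lower, and their part was not tested. In the NAc the count of members called fell from 7 to 3 without female replicate 3 or male replicate 1 and to 4 without female replicate 2 or male replicate 2.

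Of the OAS genes, Oas2 and Oas3 were lower in naive libraries of both regions. Oas2 had 0.80 to 2.44 CPM in naive and 2.35 to 4.60 in non-ensemble libraries of the NAc (log2 -0.86 ± 0.25, adjusted p = 0.013), and 1.40 to 3.44 against 2.74 to 11.1 in the mPFC (log2 -1.71 ± 0.28, adjusted p = 9.5e-05). Oas3 had 0.87 to 5.14 against 2.97 to 11.6 CPM (log2 -1.11 ± 0.30, adjusted p = 0.0087) and 2.75 to 6.02 against 5.41 to 17.3 (log2 -1.06 ± 0.20, adjusted p = 0.00028). Irf7 was lower in both regions as well (log2 -0.81 ± 0.29, adjusted p = 0.042 in the NAc, and -0.91 ± 0.24, adjusted p = 0.0040 in the mPFC, where 2.10 to 3.44 CPM did not reach the 4.58 to 6.92 of non-ensemble), and so was Tap1 (log2 -0.73 ± 0.23 and -0.62 ± 0.23, adjusted p = 0.021 and 0.036). Dhx58 (-1.09), Parp14 (-0.66), Psmb9 (-1.10), Oas1a (-1.22) and Xaf1 (-0.50) were lower in the mPFC alone among the calls, a difference between regions that was not tested. Oas1a was low there, with 1 of its 5 population means under 1 CPM. Ifi27 was higher in both regions (log2 0.67 and 0.58), and Ifit3b (0.85) and H2-D1 (0.43) were called higher in the mPFC. Of 6 fits that left out a replicate in the NAc, the Irf7 call held in 1, those of Tap1 and Ifi27 in 2. There the Oas2 call held in 3 and that of Oas3 in 5. In the mPFC the calls of Oas2 and Oas3 held in 6 and that of Irf7 in 5.

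Mx1 and Isg15 had their highest values in the male naive libraries. Mx1 had 9.06, 11.6 and 13.8 CPM in the 3 male naive libraries of the NAc and 1.47, 1.91 and 0.95 in the female ones, against 1.20 to 2.28 in non-ensemble. In the mPFC it had 8.54 to 13.4 CPM in males and 2.54 to 3.47 in females. Isg15 had 1.33 to 2.20 CPM in male and 0.32 to 0.69 in female naive libraries of the NAc. In the mPFC it had 2.19 to 2.52 and 0.58 to 1.20 CPM, against 0.42 to 0.70 in non-ensemble. There the Isg15 call (log2 1.51 ± 0.45, adjusted p = 0.0093) held in all 6 fits that left out a replicate (log2 1.39 to 1.73), with 2.28 in males alone and 0.60 in females alone (adjusted p = 0.41). For its part Mx1 had a log2 fold change of 1.49 ± 0.41 in the NAc over both sexes (adjusted p = 0.0092), 2.82 in males and -0.52 in females, and the call was lost without any 1 of the male replicates. Of the reads of Mx1 in male naive libraries, 7.19 to 12.4 CPM in the NAc belonged to the transcript annotated with no defined coding sequence and at most 0.15 to the main protein-coding one. The files of the 6 male naive libraries print counts to 6 decimals and all others to 3, a difference that no label explains. Among the naive libraries it goes with sex and cannot be told apart from it. That holds for Mx1, Isg15 and every other naive value. The difference between the sexes was not tested.

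**Figure D4:**
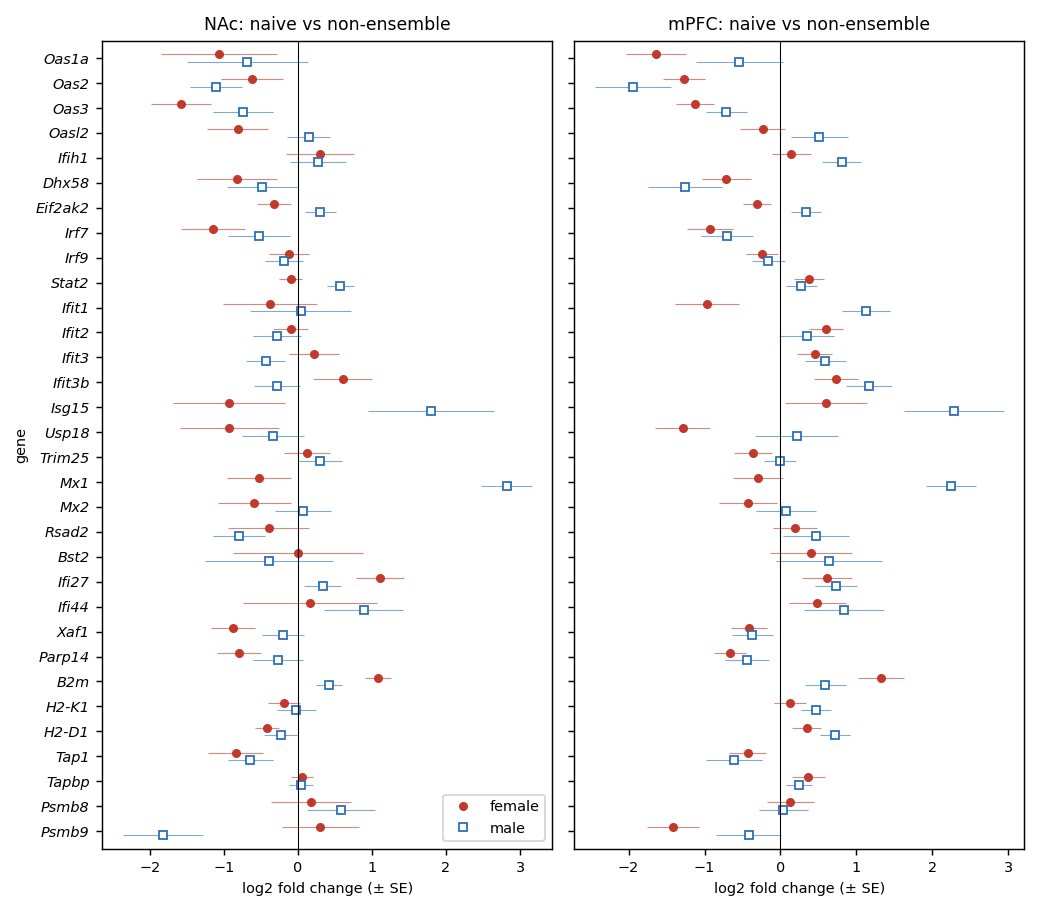
Log2 fold change (± SE) of the 32 genes between naive and non-ensemble libraries, fitted in each sex apart, left NAc and right mPFC. Mx1 and Isg15 lay far to the right in males only, while B2m lay right of 0 and Oas2, Oas3, Irf7 and Tap1 left of 0 in both sexes and both regions.

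Of 88 other genes of the pathway, from ligands to brakes, 85 were tested in the NAc and 86 in the mPFC. In the sucrose-seeking comparison with non-ensemble 17 were higher and 14 lower in the NAc (median log2 0.26), and 15 and 12 in the mPFC (median 0.17). Over all genes 36.5% and 26.7% passed, with medians of 0.22 and 0.11, so these counts were near the background. The smallest p-values in the NAc were those of Canx (log2 -0.64, adjusted p = 7.7e-09) and Calr (-0.53, 3.6e-08), the lectin chaperones that fold MHC class I heavy chains, H2-Q7 (0.67, 3.4e-08), a non-classical heavy chain, and Jak1 (-0.55, 7.1e-08), the receptor kinase. In the mPFC they were those of Jak1 (-0.59, 1.3e-07), Canx (-0.48, 1.3e-06), and Psmb6 and Psmb5 (-0.66 and -0.76, adjusted p = 3.0e-06 and 1.3e-05). Psmb5, Psmb6 and Psmb7, the standard proteasome subunits that the immunoproteasome subunits replace, were 3 of 3 lower in both regions (medians -0.65 and -0.66).

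The interferon ligands were near the floor: over 24 libraries the means of the 9 ligand genes ran from 0.070 (Ifnl3) to 1.48 CPM (Ifnk) in the NAc, and 7 of the 9 passed the filter on low counts. Of the further interferon-induced genes 7 of 32 were higher and 1 lower in sucrose-seeking than in non-ensemble libraries of the NAc. Among all genes tested there, 16.8% were higher and 19.6% lower. For the mPFC 5 of 33 were higher and 2 lower, where all genes gave 12.1% higher and 14.6% lower. The counts of higher genes were thus near the background, and those of lower genes under it. In the cocaine-seeking population, where 11.2% of all genes passed in the NAc and 16.5% in the mPFC, 8 pathway genes were higher and 1 lower in the NAc, led by Gbp5 (log2 0.47, adjusted p = 0.000299), and 18 and 7 in the mPFC, led by Jak1 (-0.42, 0.00011) and Sting1 (1.34, 0.00027), the adaptor of DNA sensing. In the overlapping population the counts were 9 and 5, and 10 and 6, against 18.2% and 15% of all genes. Between cocaine-seeking and sucrose-seeking libraries they were 9 and 4 in the NAc, with Calr (0.43, 1.3e-05) and Canx (0.46, 1.4e-05) first, and 4 and 2 in the mPFC, against 16.9% and 6.62% of all genes.

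**Figure D5:**
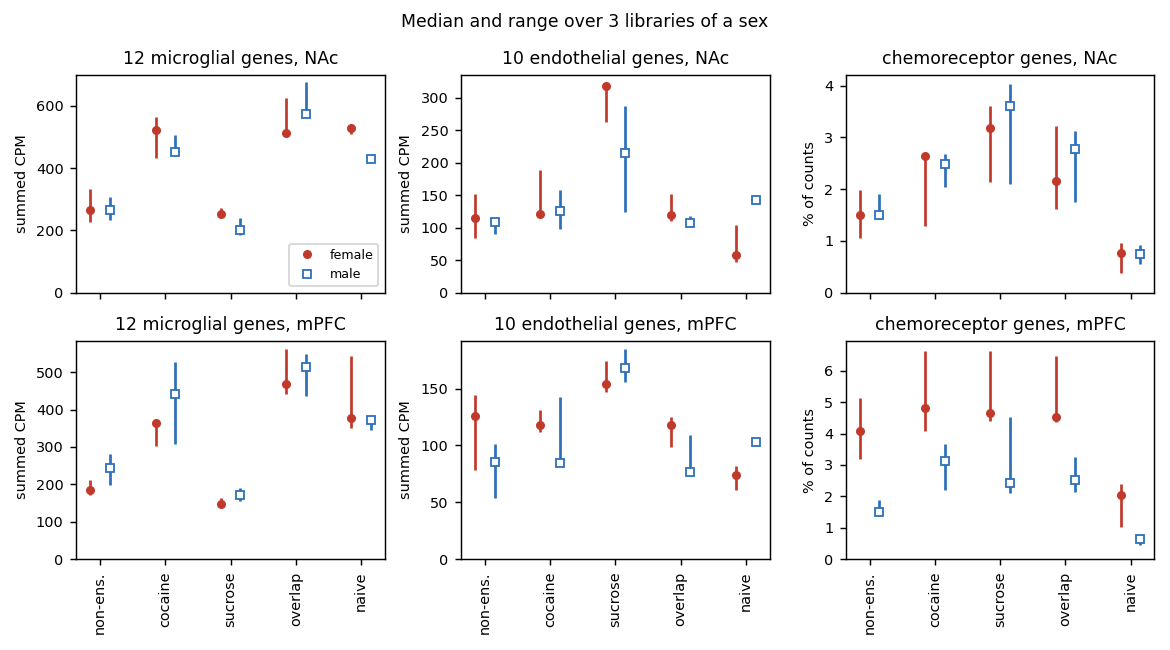
Summed CPM of 12 microglial and 10 endothelial marker genes and the percent of counts on chemoreceptor genes, by population, region and sex (point: median, line: range of 3 libraries). Microglial sums were 227 to 332 CPM in non-ensemble and 434 to 677 in cocaine-seeking and overlapping libraries of the NAc, and endothelial sums and chemoreceptor shares reached their highest values in the sucrose-seeking population there.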

How the data were processed

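Libraries were made with a low-input, ribosome-depleted SMART-seq kit (the labels give the molecule as polyA RNA) and sequenced as paired reads. The authors trimmed adapters with CutAdapt and quantified reads with Salmon against the GRCm39 transcriptome, in versions that no source here names. Each deposited file lists, as the authors' Salmon runs wrote them, the estimated count (an expected count that need not be whole), TPM and effective length of 117209 transcripts. Transcript identifiers of 116085 matched a GENCODE gene, and the other 1124, with 0.93 to 7.1% of the counts, stayed out. Estimated counts were summed by gene and rounded. The deposited TPM values by the authors were summed by gene and used for levels between genes.

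Groups came from the title codes, since some descriptions and 2 sex labels contradict them. In each region 24 libraries were fitted with edgeR 4.0.16 (R 4.3.3): TMM factors, the default filter on low counts by population, population plus pool, quasi-likelihood test, Benjamini-Hochberg adjustment over all genes tested. Regions were compared on 12 sums in all, each over the 4 populations of a pool in a region. Naive libraries were compared with non-ensemble ones in a fit of all libraries of a region, with sex as a term and no pool block. In the other fits the pool is a block because the 4 populations were sorted from the same animals. Deviations from the group means correlated on average at 0.080 to 0.18 within a pool, with a lowest single value of 0.0019. The averages between pools, -0.090 to -0.040, follow from centring each group of 3 on its mean and are no separate evidence. CPM used TMM factors over all 60 libraries. The fit was tested on simulated data.

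Every member is accounted for, and the following are described in full: those with the smallest p past adjusted p 0.05 in a comparison (at most 10) and always B2m, H2-K1, H2-D1, Stat2, Irf7, Isg15 and Oas3. Up to 4 other pathway genes a comparison are named. The members and lists were chosen with earlier results of these data known. Alternatives were no block, each sex alone, other size factors, DESeq2 1.42.0, limma-voom (limma 3.58.1), no filter, length-scaled counts from the deposited TPM, and leaving out each pool. Promoter windows came from RefSeq, and shared sequence was counted in 31-base stretches of the transcripts.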

Additional observations from a re-analysis of the deposited data

Results flagged for a closer look

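Of 120 groups of 6 libraries tested for a single library far from the rest, for the members called in a comparison or always described, 12 were picked out, where chance gives about 1 in 20. In the NAc sucrose-seeking group, male replicate 1 stood apart in 3 genes: H2-D1 at 12.5 CPM (the nearest library at 27.9), H2-K1 at 8.57 CPM (nearest 14.6) and Psmb9 at 11.8 CPM (nearest 4.80). In the NAc non-ensemble group, male replicate 1 stood apart for Stat2, low at 12.9 CPM (nearest 19.2), and for Xaf1, high at 13.4 CPM (nearest 7.48).

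In the mPFC non-ensemble group, Dhx58 was high in male replicate 3 at 11.5 CPM (nearest 5.58) and Mx1 in female replicate 1 at 7.20 CPM (nearest 3.42). In the mPFC sucrose-seeking group, H2-K1 was low in female replicate 1 at 10.9 CPM (nearest 14.8). In the mPFC overlapping group, Irf7 was high in female replicate 1 at 11.1 CPM (nearest 6.73) and Stat2 in male replicate 1 at 27.4 CPM (nearest 21.1). In the mPFC naive group, female replicate 1 was high for Parp14 at 11.9 CPM (nearest 7.97) and for Xaf1 at 9.81 CPM (nearest 6.83).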

How the results depend on the processing

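Counts of members called follow, for the NAc in the order sucrose-seeking, cocaine-seeking and overlapping against non-ensemble and cocaine-seeking against sucrose-seeking (10, 1, 2 and 2 as reported), then the same for the mPFC (5, 2, 5 and 1). Without the replicate block they were 4, 0, 0 and 0, then 2, 0, 0 and 0, and 2 between regions; the block came from the pairing of populations by pool. Female pools alone gave 5, 0, 1 and 1, then 2, 1, 1 and 0, and 15 between regions. Their shares over all genes were 26.4%, 1.61%, 4.76% and 12.1%, then 13.8%, 3.34%, 5.58% and 1.86%, and 56.8%. Male pools alone gave 2, 0, 0 and 0, then 2, 1, 2 and 0, with shares over all genes of 19.1%, 0.00401%, 5.71% and 0.313%, then 17.2%, 8.33%, 4.12% and 0.232%. Length-scaled counts gave 7, 0, 1 and 0, then 2, 0, 0 and 0, and 2 for NAc naive. DESeq2 gave 3 in the NAc cocaine-seeking comparison, 2 in that of cocaine-seeking with sucrose-seeking and 3 in that of overlapping with sucrose-seeking libraries of the mPFC, and 1 between regions. limma-voom gave 3 and 4 for cocaine-seeking and overlapping in the NAc and 1 for overlapping against sucrose-seeking in the mPFC. With no filter the NAc cocaine-seeking count was 0, that of cocaine-seeking against sucrose-seeking 1 and the mPFC cocaine-seeking count 1; DESeq2 size factors gave 1 and 0 for the latter and for mPFC cocaine-seeking against sucrose-seeking. Of 2 alternatives chosen after seeing the data, protein-coding genes without chemoreceptors gave 16, 2, 3 and 1, then 7, 5, 5 and 1, 1 for overlapping against sucrose-seeking in the mPFC and 1 between regions, and male pools 1 and 3 alone gave 0 in every mPFC comparison. Naive counts were 7 and 15 as reported (NAc, mPFC), 3 and 9 in females and 4 and 7 in males. Over all genes 23.1% and 39.9% passed as reported, 8.08% and 33.9% in females and 11.9% and 12.9% in males.

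Leaving out 1 pool gave 4 to 13, 0 to 2, 1 to 3 and 0 to 2 in the NAc, 3 to 6, 1 to 2, 1 to 3 and 0 to 1 in the mPFC, 0 to 1 for overlapping against sucrose-seeking there, 0 to 8 between regions, and 3 to 6 and 12 to 15 for naive. Of 54 named values under these settings 556 results kept direction and side of the threshold, 238 lost it, 3 gained it and 14 turned. In the NAc sucrose-seeking comparison Oasl2 (-0.12) and Ifih1 (-0.0075) turned with length-scaled counts, B2m (0.16) in females, and H2-D1 in males (-0.33) and without female pool 1 (-0.10), female pool 3 (-0.071) or male pool 3 (-0.026). In the mPFC H2-D1 turned in females (-0.0048) and without male pool 2 (-0.0047), Irf7 in males (-0.029) and without male pool 3 (-0.046), and Oas3 in females (-0.18) and without male pool 3 (-0.064). Mx1 turned in female naive libraries of the NAc (-0.52). Stat2 in the NAc sucrose-seeking comparison passed in 9 of 9 alternatives and in 6 of 6 fits without a pool. In the mPFC sucrose-seeking comparison the highest values without 1 pool were 0.24 for H2-D1, 0.22 for Irf7 and 0.30 for Oas3. Depth limits the low members most, Isg15 being under 1 CPM in 14 of 24 libraries of each region. The causes of these changes were not tested.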
